A study of Mus musculus with 3 samples.

Results

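Cycling cells of the adult mouse dentate gyrus were taken from 3 single-cell RNA libraries as the barcodes with at least 200 detected genes and at least 3 detected genes of a list of 24 proliferation genes, whatever their share of mitochondrially encoded transcripts. The rule kept 56 of 7532 barcodes, which is 0.743% (exact 95% interval 0.562 to 0.964). Of these, 25 came from the runner library, 4 from the aged library and 27 from the control library. The runner library was made from young mice given a running wheel for 12 days, and these were littermates of the 8-week-old controls. The aged library came from mice of 14 months without a wheel, and the control library from mice of 8 weeks in standard housing. All 3 libraries carry the strain label hGFAP-eGFP, a green reporter under the human GFAP promoter, whereas the series text speaks of wild type animals and gives the reporter for the aged ones alone. How many mice went into a library is not stated, no cell sort is described, and each group is 1 library. Every interval below therefore covers counting error only, and no difference between libraries could be tested.

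The dentate gyrus keeps neural stem cells that divide throughout life. Their daughters, the intermediate progenitors, divide again before they become neuroblasts and granule neurons, while astrocytes, oligodendrocyte precursors and microglia can divide locally. A cell that enters the cycle makes D cyclins, then the DNA replication genes of S phase, and then the genes of G2 and mitosis, which are held down in resting cells by a repressor complex at their promoters. Microglia are the macrophages of the brain and arise from another lineage than the neural cells around them.

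Most of the selecting genes have promoter letters that are less common among the S phase genes used below, and 4 windows are shown to compare them. Many promoters of mitotic genes carry a CHR element, with the letters TTTGAA, near the start site and CCAAT boxes upstream of it. S phase promoters carry E2F sites, which were searched for as the letters TTTGGCGC, TTTCCCGC, TTTGGCGG, TTTCCCGG, TTTCGCGC and TTTGCCGC. Both strands were read, and matches may overlap each other. The windows run 5′ to 3′ on the gene's strand from 250 bases before to 50 after the RefSeq start on GRCm38.p6, and capitals mark the CHR, CCAAT and E2F letters on either strand.
Ube2c (chr2:164769679-164769978, plus strand): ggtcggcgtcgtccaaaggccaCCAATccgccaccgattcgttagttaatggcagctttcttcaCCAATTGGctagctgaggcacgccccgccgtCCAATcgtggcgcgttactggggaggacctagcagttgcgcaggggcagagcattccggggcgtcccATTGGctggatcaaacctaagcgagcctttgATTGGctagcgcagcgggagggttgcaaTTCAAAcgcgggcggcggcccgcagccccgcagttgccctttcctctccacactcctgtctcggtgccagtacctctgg
Ccnb2 (chr9:70421505-70421804, minus strand): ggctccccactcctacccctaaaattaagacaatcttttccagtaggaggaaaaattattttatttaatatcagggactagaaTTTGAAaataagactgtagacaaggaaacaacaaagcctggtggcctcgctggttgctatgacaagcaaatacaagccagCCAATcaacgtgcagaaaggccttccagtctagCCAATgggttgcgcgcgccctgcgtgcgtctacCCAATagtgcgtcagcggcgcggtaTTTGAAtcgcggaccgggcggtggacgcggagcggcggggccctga
Cdk1 (chr10:69352863-69353162, minus strand): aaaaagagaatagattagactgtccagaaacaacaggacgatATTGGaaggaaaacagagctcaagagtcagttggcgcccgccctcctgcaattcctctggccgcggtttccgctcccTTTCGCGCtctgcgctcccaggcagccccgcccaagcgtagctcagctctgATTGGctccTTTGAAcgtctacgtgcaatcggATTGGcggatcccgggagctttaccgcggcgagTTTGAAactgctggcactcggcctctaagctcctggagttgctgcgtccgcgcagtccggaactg
Mcm6 (chr1:128359656-128359955, minus strand): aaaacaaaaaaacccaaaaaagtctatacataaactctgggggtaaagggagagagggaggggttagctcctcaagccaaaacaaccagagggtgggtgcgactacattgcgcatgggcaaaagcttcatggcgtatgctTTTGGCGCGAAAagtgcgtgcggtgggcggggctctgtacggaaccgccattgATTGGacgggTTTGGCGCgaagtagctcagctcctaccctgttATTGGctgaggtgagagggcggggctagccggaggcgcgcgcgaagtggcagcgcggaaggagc
Ube2c, the ubiquitin-conjugating enzyme of the anaphase-promoting complex, has CHR letters at position -29 from its start. Ccnb2, cyclin B2, has them at -167 and 4, and Cdk1, the mitotic kinase, at -71 and -15. Cdk1 also has E2F letters, at -131. Mcm6, a subunit of the replicative helicase and a member of the S phase list, carries E2F letters and no CHR letters in this window.

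Of the 24 selecting genes, 20 had a window, and CHR letters stood in 14 of them (70.0%), CCAAT letters in 17 (85%) and E2F letters in 2 (10.0%). Birc5, Nusap1 and Tyms had neither CHR nor CCAAT letters. In 13 of the 14, a CHR match lay within 50 bases of the start, and the median distance to the nearest CCAAT match was 27 bases. The list of 30 G2 and mitosis genes outside the rule had 25 windows, with CHR letters in 18 (72%), CCAAT letters in 18 (72%) and E2F letters in 0. The 30 S phase genes also had 25 windows, with CHR letters in 2 (8%), CCAAT letters in 14 (56%) and E2F letters in 13 (52%). Among all 27025 genes with a window, 20.2% held CHR letters, 41.1% CCAAT letters and 4.55% E2F letters. A match is a description of letters and not of a bound site.

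The selecting genes themselves are given as a description, since they chose the members. Ube2c was detected in 35 of the 56 cycling barcodes with 89 UMIs (unique molecular identifiers, counted transcripts), and in 14 of 7476 other barcodes. Top2a, the topoisomerase that untangles chromosomes, was detected in 31 with 84 UMIs and in 8 others. Birc5, the survivin subunit of the chromosomal passenger complex, and the kinase gene Pbk were also detected in 31 each. Mki67, which coats mitotic chromosomes and encodes the Ki-67 antigen, was seen in only 21 members and 57 others, and 45 of those 57 others were runner barcodes. Cdk1 was seen in 17 members and 12 others. The 4 marker genes named for this population, Mki67, Top2a, Ube2c and Cdk1, were thus present in the members as a group but each was missing from many of them.

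The threshold lay on a sparse edge. Of the members, 11 had exactly 3 selecting genes and 33 had 6 or more, while 37 barcodes had 2 and stayed out. Cenpf, a kinetochore protein gene, was the weak point: it was detected in 750 other barcodes, 445 of them runner, 175 aged and 130 control, and in 22 of the 37 barcodes with 2 genes. Barcodes just inside the threshold had a median of 669 nuclear-encoded UMIs and 3 UMIs of the G2 and mitosis list outside the rule, and those just outside had medians of 1609 and 0. The libraries were mixed unequally, with 4 runner, 0 aged and 7 control barcodes inside, and 27, 4 and 6 outside. In control the medians were 669 and 6 inside, and 546 and 3.5 outside. In runner they were 1184.5 and 2 inside, and 1609 and 0 outside. The aged table did not list 13 of the 24 genes, the control table did not list 4, and the runner table listed all, because a gene with UMIs in fewer than 3 barcodes of a library is not listed. No member was among the 23 barcode sequences that occurred in more than 1 library.

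Pooled over lineages, the cycling barcodes had lower mitochondrial shares than the rest. Their median mitochondrial share was 5.12%, against 41.1% in the other 7476 barcodes, and their median depth was 1892 nuclear-encoded UMIs, against 497. The part of depth in this difference was not tested. By the lineage calls described below, the gap varied. Medians were 2.82% in cycling and 6.99% in other microglia-like barcodes, 9.80% and 40.2% in astroglia-like ones, and 11.5% and 48.6% in uncalled ones. Neurogenic-like barcodes lay close, at 3.44% and 3.61%. The 1 oligodendrocyte precursor-like member lay higher, at 13.3%, against a median of 5.65%. A limit of 10% mitochondrial UMIs, a common filter for damaged cells, would have removed 19 of the 56 members (33.9%, 21.8 to 47.8) and 5637 of the others (75.4%). The loss was uneven between libraries. It would take 3 of 25 runner members, 1 of 4 aged members and 15 of 27 control members. Among members not called microglia-like, 2 of 15 runner barcodes, the 1 aged barcode and 15 of 22 control barcodes lay at or above 10%, with medians of 3.23% in runner, 20.9% in aged and 14.4% in control. The same control barcodes were shallow, with a median of 799 nuclear-encoded UMIs, against 3014 in the runner ones. Microglia-like members stayed low in each library, at medians of 2.80% in runner, 2.79% in aged and 2.84% in control, and 1 of 18 passed 10%.

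**Figure D1:**
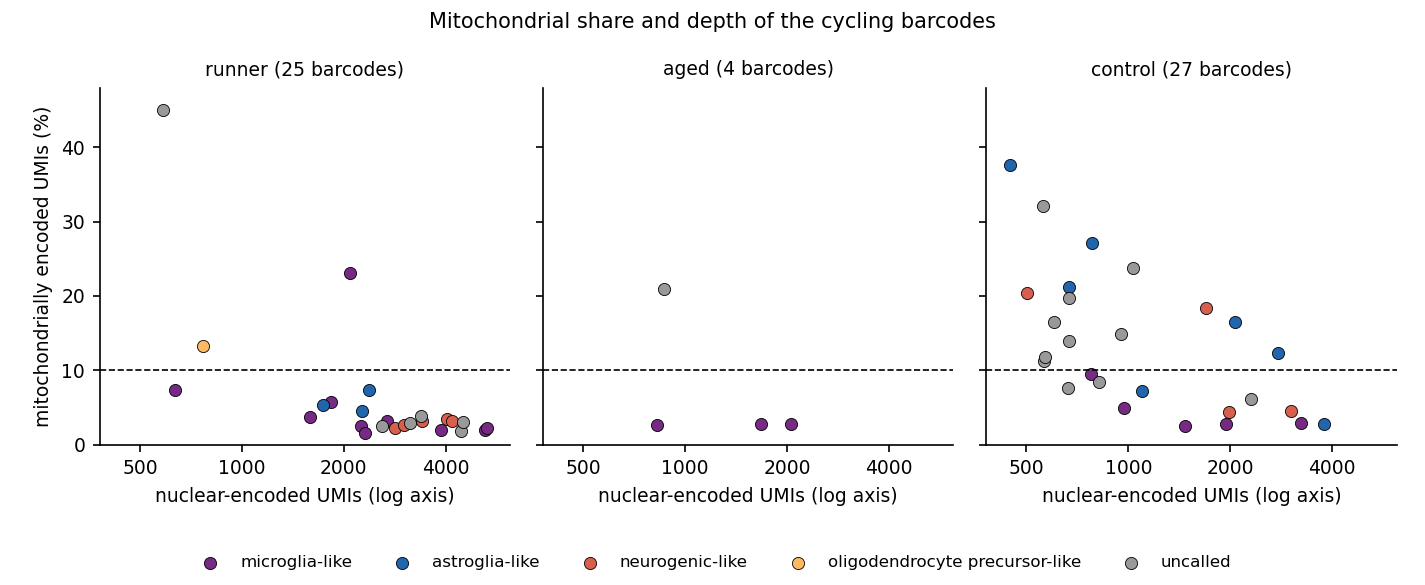
Each point is 1 cycling barcode, with its nuclear-encoded UMIs on a log axis and its mitochondrially encoded UMIs in percent, for the runner, aged and control libraries, coloured by lineage call; the dashed line is at 10%. Above the line lie 3 runner, 1 aged and 15 control barcodes, and none of the 15 control points above it is microglia-like.

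The share of cycling barcodes was 0.845% in the runner library (25 of 2959, 0.547 to 1.24), 0.176% in the aged library (4 of 2270, 0.0480 to 0.451) and 1.17% in the control library (27 of 2303, 0.774 to 1.70). The runner share over the control share was 0.721 (0.401 to 1.29). With at least 2 selecting genes in place of 3 it was 1.23 (0.778 to 1.96), on the other side of 1. The aged share over the control share was 0.150 (0.0382 to 0.431). Under 10% mitochondrial UMIs the runner ratio was 0.972 and the aged ratio 0.327. Barcodes with at least 500 nuclear-encoded UMIs (1554 runner, 1053 aged, 1162 control) were also thinned to 500 each. Among these the ratios were 0.572 and 0.260. As a background for the rule, 0 of 852 mature neuron-like and oligodendrocyte-like barcodes were cycling, which allows a share of up to 0.352%. Those barcodes had a median of 658.5 nuclear-encoded UMIs, against 1892 in the members.

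Split by the microglia-like call, the ratios of the 2 young libraries lay on opposite sides of 1, each with an interval that reaches 1. Of microglia-like barcodes, 2.09% were cycling in the runner library (10 of 479), 0.706% in the aged library (3 of 425) and 1% in the control library (5 of 499). The runner over control ratio was 2.08 (0.649 to 7.77). Of barcodes not called microglia-like, 0.605% were cycling in the runner library (15 of 2480), 0.0542% in the aged library (1 of 1845) and 1.22% in the control library (22 of 1804). The runner over control ratio was 0.496 (0.239 to 1) and the aged over control ratio 0.0444 (0.00108 to 0.275). The aged ratio again rests on fewer listed selecting genes. With only the 11 selecting genes listed in all 3 tables, 4 of 2270 aged and 19 of 2303 control barcodes of any lineage were cycling. The full rule gave 4 and 27. The aged library held 0 cycling astroglia-like barcodes of 501, which allows a share of up to 0.599%, and 0 of only 9 neurogenic-like barcodes. With at least 2 selecting genes in place of 3, the ratio outside microglia-like barcodes was 1.02. With 1 library per group, none of these differences was tested.

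Each barcode was given a lineage from 15 lists of 10 marker genes, by the list with the most detected markers, provided that at least 3 were detected and the list led by at least 1. Pooled over the libraries, 18 members were microglia-like (10 runner, 3 aged, 5 control), 10 astroglia-like (3 runner, 0 aged, 7 control), 9 neurogenic-like (5 runner, 0 aged, 4 control) and 1 oligodendrocyte precursor-like, from the runner library. The other 18 (6 runner, 1 aged, 11 control) stayed uncalled, 16 because no list reached 3 markers and 2 because lists tied. The uncalled members had a median of 3255 nuclear-encoded UMIs in the runner library, 866 in the 1 aged barcode and 666 in the control library. No member was called for any of the other 11 lists. Endothelial, mural, ependymal, perivascular macrophage, blood myeloid and GABAergic markers came to at most 6 UMIs per list over all 56. Only 3 blood myeloid, 4 lymphocyte, and 5 each of the mural, ependymal and erythroid markers were in the data, so a call was hard to reach there. The 6 blood myeloid UMIs were all of Plac8, in 2 microglia-like members. The 6 GABAergic UMIs were all of Dlx1, in 10.7% of members, against 0.441% of other barcodes.

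The microglial call had a wide margin, although its markers made the call. Microglia-like members carried 4 to 10 of the 10 microglia markers, and the 38 others carried at most 2, with 28 carrying none. The deepest member, a microglia-like runner barcode, carried all 10 and also 3 neurogenic markers. Whether it was a doublet could not be told. C1qa, a complement component made by brain macrophages, was detected in 18 of 18 microglia-like members and 0 of the 38. Csf1r, the receptor for the growth factor on which microglia depend, was detected in 14 and 0, and Fcrls in 16 and 0.

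The 38 members not called microglia-like carried neurogenic markers more often than other barcodes did, and astroglial markers about as often. Of the 38, 27 carried at least 1 astroglial and at least 1 neurogenic marker, 6 astroglial markers only, 2 neurogenic markers only and 3 neither. At least 1 neurogenic marker was in 76.3% of them, against 10.7% of the 6091 other barcodes not called microglia-like. At least 1 astroglial marker was in 86.8%, against 87.0%, and it was in 9 of 18 microglia-like members. An astroglial UMI was thus no more common in the 38 than in the background. Median depth was 1715.5 nuclear-encoded UMIs in the 38, against 450.0, and its part in these shares was not tested. Sox11, a transcription factor of progenitors and neuroblasts, was detected in 27 of the 38 and in 1 microglia-like member, at 1508 CPM in the 38, against 379 CPM in the 6091. The astroglial glutamate transporter genes Slc1a3 and Slc1a2 were detected in 21 each, Slc1a2 at 622 CPM, against 3424 CPM, and Slc1a3 at 775 CPM, against 877 CPM, and 20 of the 38 carried both Sox11 and Slc1a3. Eomes, the factor of intermediate progenitors, was detected in 10, against 0.558% of the 6091, and Insm1, a factor of dividing neural precursors, in 9, against 0.328%. Dcx, a neuroblast microtubule protein gene, was in 8, and Cd24a, a surface protein of neuroblasts, in 1. Of mature astrocyte genes, Aldoc was in 12 of the 38, and the water channel Aqp4 in 1. Among stem cell genes, Thrsp was in 19 of the 38 (664 CPM, against 190 CPM in the 6091), Fabp7 in 16 (733 CPM, against 482 CPM), Sox2 in 11 (387 CPM, against 116 CPM) and Vim in 9 (277 CPM, against 29.2 CPM). Gfap, in 7, stood at 96.8 CPM, against 368 CPM, and Hopx, in 3, at 41.5 CPM, against 203 CPM.

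**Figure D2:**
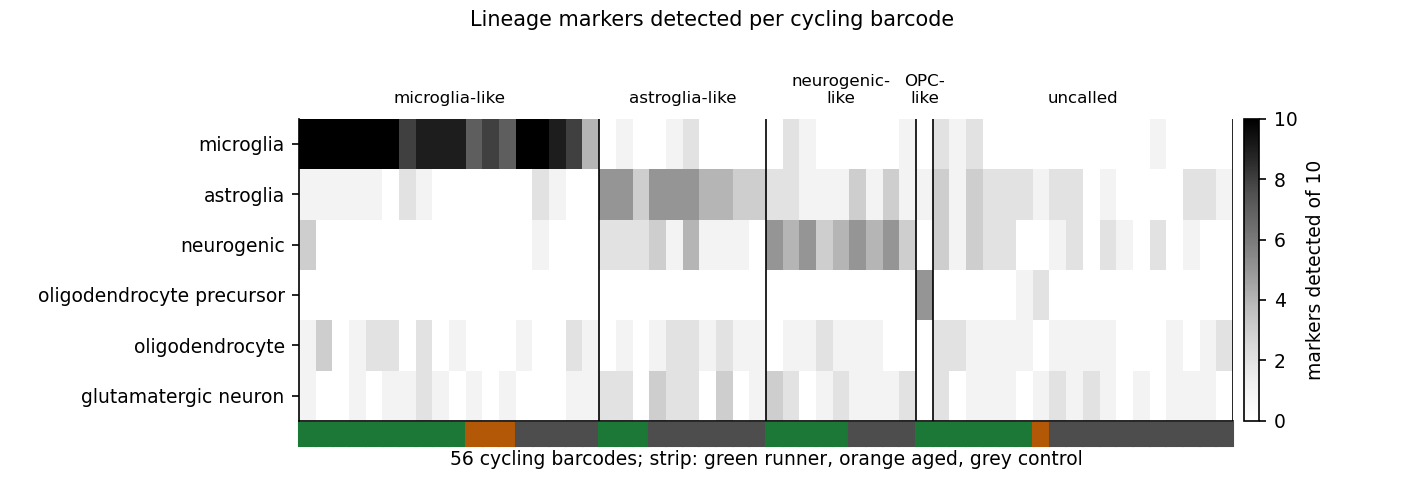
Each column is 1 of the 56 cycling barcodes, grouped by lineage call, and each row a marker list; the grey scale gives the number of detected markers of 10, and the strip below shows the library in green for runner, orange for aged and dark grey for control. The microglia row is dark only in the 18 microglia-like barcodes, while the astroglia and neurogenic rows are both light to mid grey across the other called and the uncalled barcodes.

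Phase genes outside the rule were carried by nearly every member. Hmgb2, a chromatin protein gene that peaks in G2 and mitosis, was detected in 52 of 56 members (23 of 25 runner, 4 of 4 aged, 25 of 27 control) at 4201 CPM (UMIs of the gene scaled to 1000000 nuclear-encoded UMIs), against 134 CPM in other barcodes. Cks2, a small partner of cyclin-dependent kinases, was in 39, Cenpa, the centromeric histone, in 31, and the condensin genes Smc2 and Smc4 in 30 and 26. Of the S phase list, Slbp, the binding protein of histone mRNAs, was in 21 and Pcna, the clamp of DNA polymerase, in 19. Pcna stood at 451 CPM, against 52.1 CPM in other barcodes. Of the 4 aged members, 0 had a Pcna UMI. All 30 S phase genes were seen in at least 1 member.

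By the sum of UMIs, 11 of 56 members (19.6%, 10.2 to 32.4) carried more of the S phase list than of the G2 and mitosis list, 6 of 25 in the runner library, 0 of 4 in the aged library and 5 of 27 in the control library. With Hmgb2 left out of the second list the share was 32.1%. Apart from Rrm2 and Tyms, the selecting genes were classed with G2 and mitosis rather than with S phase. The rule thus favours members with G2 and mitosis genes, and the share does not describe the phases of all dividing cells. The sums ran from 0 to 36 S phase UMIs and from 0 to 77 G2 and mitosis UMIs per barcode. The 10 runner microglia-like members had 1 to 17 S phase UMIs with a median of 6. The 3 aged ones had 0, 0 and 2 S phase UMIs, beside 9, 20 and 27 G2 and mitosis UMIs, and the 5 control ones had 0, 0, 11, 16 and 33 S phase UMIs. The runner and control values overlapped.

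**Figure D3:**
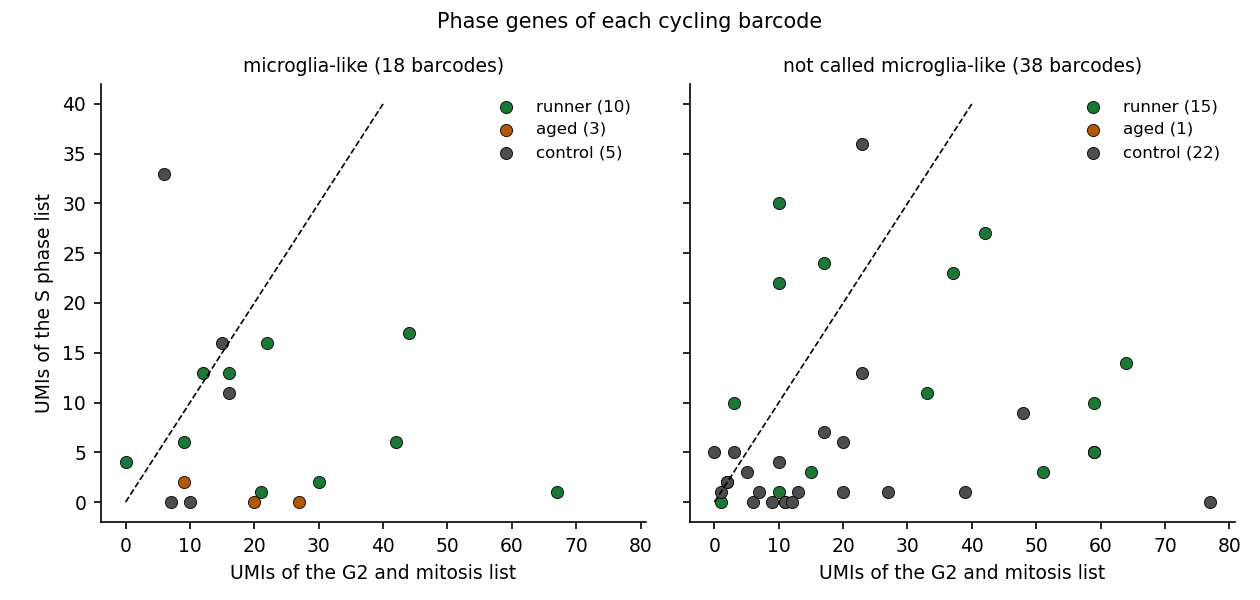
Each point is 1 cycling barcode, with UMIs of the G2 and mitosis list outside the rule on the horizontal axis and UMIs of the S phase list on the vertical axis, for 18 microglia-like and 38 other barcodes, coloured by library; the dashed line marks equal sums. Most points lie below the line, and 11 lie above it, among members chosen by a rule that favours G2 and mitosis genes.

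Cycling microglia-like barcodes were next set beside the other 1385 microglia-like barcodes. They carried more of every growth list and held a high level of the cell cycle inhibitor Cdkn1a. Since the rule chose the members by proliferation genes, values of this contrast are a description. Of 7425 genes with at least 20 UMIs in both sets together, 27.4% were higher by at least 2-fold and 12.0% lower, and nothing is read from these shares. A gene can reach this minimum through its UMIs in the cycling barcodes, which favours genes that are high there. The counts of evaluated genes below share this limit. The S phase list stood at 3459 CPM in cycling barcodes, against 494 CPM in the others, a ratio of 7.01 (5.82 to 8.39), with 11 of its 11 evaluated genes at least 2-fold higher. Its log2 ratio was 2.81 over all libraries and 3.55 without the runner library. The G2 and mitosis list outside the rule had a ratio of 22.4 (19.6 to 25.4), with 9 of 9 evaluated genes higher. Chromatin and cytoskeleton genes of growing cells had a ratio of 5.62 (5.23 to 6.03). The median log2 ratio of all evaluated genes was 0.26.

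By the rule on the lower bound of the ratio, the leading genes outside the selecting list were Cdc20, H2afx, Cenpa, Hist1h2ap, Ckap2l, Hist1h2ae, Smc4, Gm43305, Cks1b and Tacc3. Cdc20, the activator of the anaphase-promoting complex, had 18 UMIs in 8 of 18 cycling barcodes and 442 CPM, against 1.24 CPM in the others. H2afx, the histone variant marked at DNA breaks, had 31 UMIs in 14 of 18 and 760 CPM, against 7.44 CPM. It was detected in 9 of 10 runner, 3 of 3 aged and 2 of 5 control barcodes. Tacc3 and Ckap2l belong to the mitotic spindle, and Gm43305 is a predicted gene.

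Cdkn1a encodes p21, which binds cyclin-dependent kinases and holds cells before S phase or in G2, so its place in dividing microglia was looked at barcode by barcode. It lies on GRCm38 at chr17:29090976-29100727, plus strand, in the GENCODE M21 annotation. The 10 runner barcodes had 0, 0, 0, 2, 3, 4, 5, 8, 9 and 11 UMIs, the 3 aged barcodes 0, 12 and 18, and the 5 control barcodes 0, 5, 9, 11 and 30. High and zero barcodes thus stood side by side in every library, and 13 of 18 had the transcript. The level was 3115 CPM in cycling microglia-like barcodes, against 279 CPM in the others, a ratio of 11.2 (9.09 to 13.6). Of other microglia-like barcodes, 16.1% had a UMI. Within libraries the ratio was 5.98 (4.16 to 8.44) in runner, 25.8 (16.6 to 38.7) in aged and 19.5 (14.1 to 26.6) in control. Without the barcode of 30 UMIs, the pooled log2 ratio was 3.16 instead of 3.48, and without the runner library it was 4.46.

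Other inhibitors were higher as well, some on few UMIs. Of 12 evaluated genes of the list of 15 inhibitors, 9, Cdkn1a among them, were at least 2-fold higher and 0 lower, with a median log2 ratio of 1.34, against 0.26 over all genes. Sparse genes can be evaluated because of their UMIs in the cycling barcodes, so the count of 9 is a description only. Cdkn2d, an inhibitor of Cdk4 and Cdk6, had 8 UMIs in 8 of 18 cycling barcodes, a ratio of 12.7 (4.93 to 28.9), and Cdkn2c, of the same family, had 7 UMIs in 6, a ratio of 17.3 (6.02 to 44.5). Summed, the list had a ratio of 1.82 (1.62 to 2.04), a log2 ratio of 0.86 that was 1.77 without the runner library. Btg2 gave 119 of the list's 321 UMIs in cycling barcodes. This antiproliferative gene, also induced when tissue is dissociated, stood at 2919 CPM in cycling barcodes, against 3015 CPM in the others, a ratio of 0.968 (0.800 to 1.16). The dissociation stress list, which holds early response genes, had a ratio of 0.669 (0.625 to 0.715). Fos, one of its members, stood at 4366 CPM in cycling barcodes, against 6644 CPM. The part of dissociation in the Cdkn1a level was not tested.

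The microglial markers as a list stood at 30565 CPM in cycling microglia-like barcodes, against 36916 CPM in the others, a ratio of 0.828, with 0 of 10 genes past 2-fold in either direction. Both sets were called by these markers, which limits how far they could differ. Tmem119, a surface protein typical of resident microglia, stood at 2011 CPM, against 1908 CPM, and P2ry12, their nucleotide receptor, at 2527 CPM, against 3627 CPM. Apoe, the lipid carrier that activated microglia raise, stood at 245 CPM, against 1256 CPM, a ratio of 0.195 (0.0935 to 0.360). The disease-associated microglia list, to which Apoe belongs, had a ratio of 1.63 (1.49 to 1.78), with 3 of 5 evaluated genes at least 2-fold higher and 1, Apoe, lower. Of the 3, Cst7 had 1 UMI in the cycling barcodes, and the chemokine genes Ccl4 and Ccl3 had 353 and 93 of the list's 491. Ccl4 stood at 8659 CPM, against 3799 CPM, and Ccl3 at 2281 CPM, against 1040 CPM. In the same comparison astroglial markers stood at 343 CPM, against 1477 CPM, and glutamatergic neuron markers at 442 CPM, against 1163 CPM. Apoe is also abundant in astroglia, whose other barcodes held 14065 CPM, and the part of astroglial RNA in its difference was not tested.

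Among the 10 cycling astroglia-like barcodes, growth genes were high, Ccnd2 was high and the markers of mature astrocytes were low. The 1573 other astroglia-like barcodes served as the comparison, and of 6536 evaluated genes 34.4% were at least 2-fold higher and 12.4% lower, which, as before, is not read as a result. Under 10% mitochondrial UMIs in both sets, with 5 cycling barcodes left, 857 genes were higher in place of 2248. The minimum of 20 UMIs was applied anew to these smaller sets, so the counts do not share a denominator and their difference is not read. The S phase list had a ratio of 11.3 (8.74 to 14.5), a log2 ratio of 3.50 that was 2.71 without the control library. The G2 and mitosis list had a ratio of 65.9 (53.2 to 81.7), and the chromatin and cytoskeleton list 15.2 (14.0 to 16.6). Leading genes by the rule were Pclaf, Cks2, Hist1h2ap, Lockd, Hmgb2, Hmgn2, H2afz, Stmn1, Cdk6 and Egr1. Hmgn2, a nucleosome-binding protein gene, was in 10 of 10 cycling barcodes, with 14, 20 and 23 UMIs in the 3 runner ones and 4, 6, 8, 11, 12, 13 and 19 in the 7 control ones. Its level was 7223 CPM, against 181 CPM, a ratio of 39.8 (31.7 to 49.9), or 5.31 on the log2 scale and 4.44 among barcodes under 10% mitochondrial UMIs. Pclaf, a partner of the polymerase clamp, had 38 UMIs, of which 27 lay in 1 control barcode.

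The astroglial marker list stood at 4945 CPM in cycling astroglia-like barcodes, against 19171 CPM in the others, a ratio of 0.258, with 8 of 10 genes at least 2-fold lower. Slc1a2 had 1, 1 and 7 UMIs in the runner ones and 0, 1, 2, 2, 2, 4 and 7 in the control ones, which gave 1500 CPM, against 7221 CPM. Aldoc, a glycolytic enzyme gene of astrocytes, gave 333 CPM, against 4249 CPM. Slc1a3, which radial glia also express, was closer, at 1833 CPM, against 2799 CPM. Sox9, a factor shared by astrocytes and stem cells, gave 444 CPM, against 431 CPM. Neurogenic markers stood at 1556 CPM, against 117 CPM, and 16 of their 28 UMIs came from Sox11, which was in 8 of the 10. The call asks for 3 markers at any depth, and the cycling barcodes had a median of 1902 nuclear-encoded UMIs, against 524. The part of depth in the lower marker levels was not tested. The dissociation stress list stood at 7389 CPM, against 1469 CPM, a ratio of 5.03 (4.18 to 6.01), and Egr1, one of the leading genes above, belongs to it. Of the other astroglia-like barcodes, 1327 of 1573 lay at or above 10% mitochondrial UMIs, against 5 of the 10 cycling ones. The part of this difference in the stress and marker levels was not tested.

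**Figure D4:**
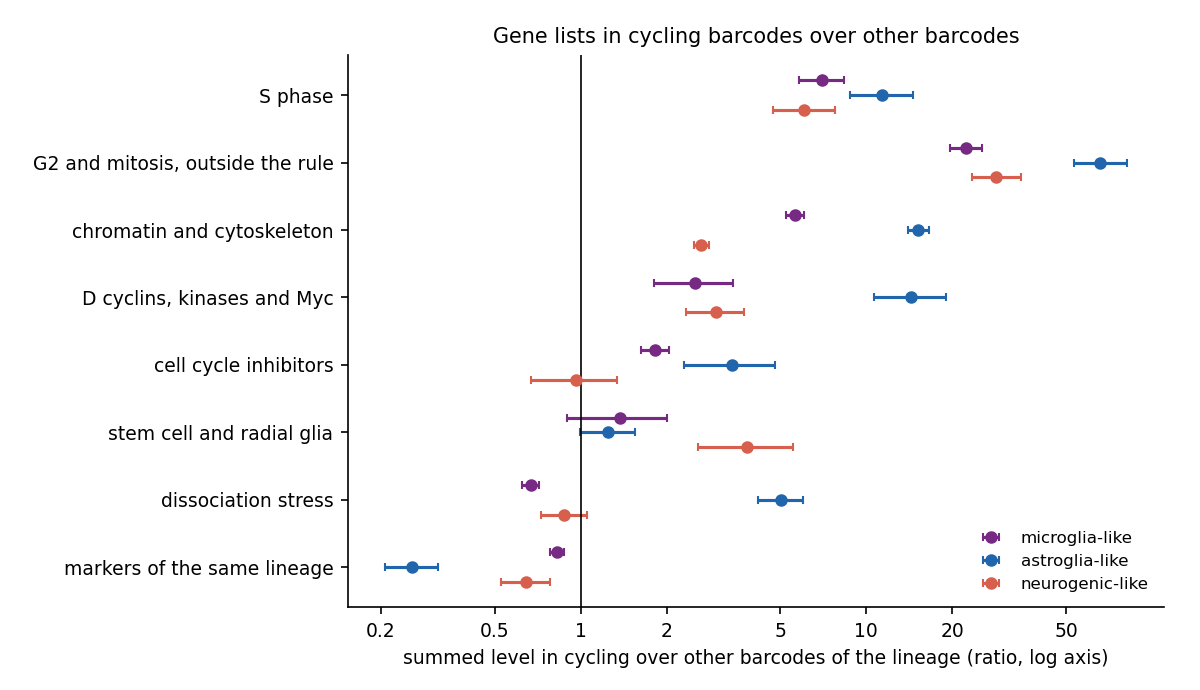
Points give the summed level of each gene list in cycling barcodes over that in other barcodes of the same lineage (ratio, log axis) with exact 95% counting intervals, for microglia-like, astroglia-like and neurogenic-like barcodes; the line marks a ratio of 1. Every growth list lies to the right of the line in each lineage, the lineage's own markers lie to the left, and dissociation stress lies to the right only in astroglia-like barcodes.

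The 9 cycling neurogenic-like barcodes stood higher in Insm1 and Eomes, and lower in Cd24a, Neurod1 and Igfbpl1, than other neurogenic-like barcodes. They were set beside 169 others, 140 of them runner and 20 control, and of 2853 evaluated genes 15.3% were at least 2-fold higher and 17.1% lower. Insm1 had 3 UMIs in 1 of the 5 runner barcodes and 1, 1, 1 and 4 UMIs in the 4 control ones, a level of 405 CPM, against 36.6 CPM, and a ratio of 11.1 (4.22 to 28.7). Eomes stood at 324 CPM, against 107 CPM, a ratio of 3.05 (1.21 to 6.75), and Sox2 at 487 CPM, against 117 CPM. Cd24a was in 0 of 9, against 75.1% of the others, with an upper limit of the ratio at 0.161. Neurod1, which drives the step to granule neurons, stood at 487 CPM, against 1202 CPM, and Igfbpl1 at 162 CPM, against 559 CPM. Of the 10 neurogenic markers, 8 were evaluated, with 3 at least 2-fold higher and 3 lower. Summed, the list had a ratio of 0.645 (0.529 to 0.780). Both sets were called by these markers, which limits how far they could differ. Median depth was 3014 nuclear-encoded UMIs in the cycling barcodes, against 1812.

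Neurogenic-like cycling barcodes also differed in growth genes. The S phase list had a ratio of 6.06 (4.71 to 7.75) and the G2 and mitosis list 28.4 (23.4 to 34.8), but the chromatin and cytoskeleton list only 2.65 (2.49 to 2.82). Stmn1, a microtubule regulator used by dividing cells and by young neurons, stood at 6123 CPM in cycling barcodes, against 4837 CPM in the others. H2afz stood at 8029 CPM, against 846 CPM. The dissociation stress list had a ratio of 0.878 (0.726 to 1.05) here. Cdkn1a had 0 UMIs in the 9 barcodes.

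Microglia-like and other cycling barcodes were then compared with each other, a contrast that the selecting genes did not define but the microglia markers did. Of 1013 evaluated genes, 15.6% were at least 2-fold higher in the 18 microglia-like barcodes and 30.6% lower. The selecting genes came to 7604 CPM in the microglia-like barcodes and 8092 CPM in the others, a ratio of 0.940 (0.816 to 1.08). The S phase list had a ratio of 0.874 (0.709 to 1.07) and the G2 and mitosis list 0.773 (0.682 to 0.874).

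The regulators of cycle entry and exit lay further apart than the selecting genes. Ccnd2, cyclin D2, which opens the path to S phase, had 8 UMIs in the microglia-like barcodes, all in 1 runner barcode, and 157 UMIs in 26 of the 38 others, or 196 CPM against 2172 CPM. Among the 15 runner barcodes of the others it ran from 0 to 19 UMIs with a median of 4, and among the 22 control ones from 0 to 15 with a median of 1. The gene lies at chr6:127125162-127152193 on the minus strand. Cdk4, the kinase that D cyclins activate, had 5 UMIs in 3 microglia-like barcodes and 41 UMIs in 20 others. Cdk6, its close relative, had 6 UMIs in 4 and 38 UMIs in 16. Ccnd1 was sparse in both, with a UMI in 5 microglia-like barcodes and in 4 others. Myc was in 6 of the microglia-like barcodes and 1 of the others, and Mycn, its neural relative, in 0 and 9. Cdkn1a stood at 3115 CPM in the microglia-like barcodes, against 83 CPM in the others, where it had 6 UMIs in 3 of 38. Hmgn2 stood at 1987 CPM, against 7650 CPM, and Pclaf at 294 CPM, against 1591 CPM. Early response genes were higher in the microglia-like barcodes, with Junb at 4440 CPM, against 277 CPM, and Atf3 at 1276 CPM, against 41.5 CPM. Their list, dissociation stress, stood at 21611 CPM, against 5879 CPM. Barcodes outside the cycling set differed as well, with the list at 32290 CPM in other microglia-like ones. In other barcodes not called microglia-like it stood at 3265 CPM in runner and 3051 CPM in control. The Cdkn1a level of other microglia-like barcodes, given above, likewise exceeded the 88.3 CPM of all other barcodes.

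**Figure D5:**
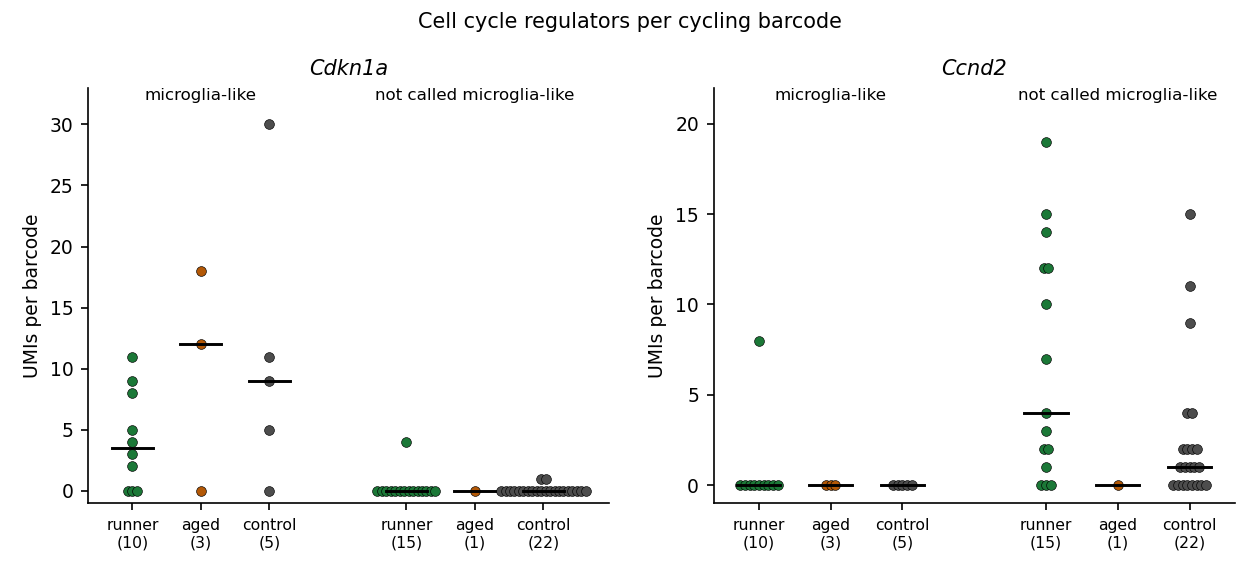
Each point is the UMI count of Cdkn1a or Ccnd2 in 1 cycling barcode, by library and by whether the barcode was called microglia-like, with the number of barcodes in brackets and a bar at the median. Cdkn1a reaches 11 UMIs in runner, 18 in aged and 30 in control microglia-like barcodes, and Ccnd2 reaches 19 in runner and 15 in control barcodes of the other group.

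Between the 2 young libraries, the cycling barcodes not called microglia-like (15 runner, 22 control) differed in growth lists by at most 1.25-fold and in astroglial markers by more. Of 621 evaluated genes, 7.57% were at least 2-fold higher in runner and 6.60% lower. Among all other barcodes not called microglia-like, 5.78% of 10927 genes were higher in runner and 3.20% lower. The S phase list stood at 4351 CPM in runner and 3473 CPM in control, a ratio of 1.25 (0.976 to 1.62). The G2 and mitosis list stood at 10877 CPM in runner and 13290 CPM in control, a ratio of 0.818 (0.713 to 0.940). Ccnd2 stood at 2337 CPM in runner and 1985 CPM in control, a ratio of 1.18 (0.844 to 1.66). Astroglial markers stood at 1389 CPM in runner and 3119 CPM in control, a ratio of 0.445 (0.315 to 0.625), of which Slc1a3 gave 440 CPM in runner and 1311 CPM in control. Some markers of other cell types moved with it. Oligodendrocyte markers stood at 417 CPM in runner and 1382 CPM in control, and glutamatergic neuron markers at 509 CPM and 1382 CPM. Neurogenic markers had a ratio of 0.752 (0.557 to 1.02). Others lay the other way on few UMIs in runner and control. These were oligodendrocyte precursor (13 and 0 UMIs), microglia (9 and 5) and erythroid markers (9 and 4). The part of other cell types in the astroglial difference, and that of the higher mitochondrial share of the control barcodes, was not tested.

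Among microglia-like cycling barcodes (10 runner, 5 control), 8.68% of 242 evaluated genes were at least 2-fold higher in runner and 8.26% lower, and among other microglia-like barcodes 4.27% of 6096 genes were higher and 3.25% lower. The S phase list stood at 2842 CPM in runner and 7133 CPM in control, a ratio of 0.398 (0.281 to 0.567), but 33 of the 60 control UMIs came from 1 barcode. Cdkn1a stood at 1511 CPM in runner and 6538 CPM in control, where 30 of 55 UMIs came from 1 barcode, and the per-barcode counts overlapped. The G2 and mitosis list lay the other way, at 9460 CPM in runner and 6419 CPM in control, a ratio of 1.47 (1.10 to 2.01), as did the selecting genes, with a ratio of 1.52 (1.10 to 2.14). The chromatin and cytoskeleton list had a ratio of 1.29 (1.08 to 1.55), with 3 of 11 evaluated genes at least 2-fold higher. Of these, Stmn1 stood at 3525 CPM in runner and 1189 CPM in control, and Hmgn2 at 2518 CPM in runner and 1070 CPM in control. The aged library had 3 such barcodes, with a G2 and mitosis level of 12297 CPM and 2 S phase UMIs in all.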

How the data were processed

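Tables of raw UMI counts, 1 per library, were deposited by the authors; per the labels' protocols, dentate gyri were digested with trypsin and prepared with the 10x Chromium 3' version 2 kit. The submitters' processing notes name Cell Ranger 2.1.1, Seurat 3.1.0 and GRCm38, with no further settings. Totals were 3808360 UMIs in the runner table, 2537567 in aged and 2330698 in control. Barcodes with at least 200 detected genes were kept (2959 runner, 2270 aged, 2303 control), with no mitochondrial filter. Doublets were left in: Scrublet in scanpy 1.11.5 marked 10 of 7532 barcodes (0.133%), so few that it cannot be said to have worked, and 0 members.

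Levels (CPM) are summed counts scaled to 1000000 nuclear-encoded UMIs. Ratios have exact conditional binomial 95% intervals and shares exact Clopper-Pearson intervals; a share of 0 has a limit of 3 counts. Log2 ratios used 0.5 added counts, and genes were evaluated with at least 20 UMIs in both sets together. The ratio code was tested on simulated data. Genes were named as list members or, for lineages with at least 10 cycling barcodes, as the 10 outside the rule with the highest lower bound, detected in at least 25% of the cycling barcodes. Members and lists were chosen with earlier results of these data known. Promoter windows and gene positions came from RefSeq (GRCm38.p6) and GENCODE M21. Alternatives were other thresholds of the rule, depth, mitochondrial limits, lineage and phase calls, scalings and omitted libraries. Python 3.11.15, numpy 2.4.6, scipy 1.17.1, pandas 2.3.3 and matplotlib 3.10.9 were used.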

Additional observations from a re-analysis of the deposited data

Results flagged for a closer look

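The ratio of the cycling share in the runner library to that in the control library lay on opposite sides of 1 by the microglia-like call. It was 2.08 (0.649 to 7.77) among microglia-like barcodes and 0.496 (0.239 to 1) among barcodes not called microglia-like, so both intervals reach 1, the second at its upper end. With at least 2 selecting genes in place of 3, the second ratio was 1.02. Each ratio rests on 1 library per group, and the difference between them was not tested.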

How the results depend on the processing

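Thinning to 500 nuclear-encoded UMIs per barcode dropped barcodes with fewer than that, and 34 members remained. Of these, 5.88% were astroglia-like or neurogenic-like (33.9% in full), since thinned barcodes show fewer markers. More S phase than G2 and mitosis UMIs were in 5.88% (19.6% in full). With at least 500 detected genes, 20.5% of members reached 10% mitochondrial UMIs, against 33.9%. With at least 2 selecting genes, the runner over control ratio outside microglia-like barcodes was 1.02 in place of 0.496; over all barcodes it was 1.23 in place of 0.721. Under 10% mitochondrial UMIs, 857 genes were at least 2-fold higher in cycling astroglia-like barcodes, against 2248, but the evaluated genes were chosen anew, so these counts have unlike denominators. Set against the aged library in place of control, the runner log2 ratio in microglia-like members was 2.69 for the S phase list (-1.33 against control) and -0.38 for the G2 and mitosis list (0.56 against control), with 3 aged barcodes. The cause of the changes was not tested apart from the thinning. Of 96 gene and list values recomputed, 92 kept their direction, but 36 fell outside the interval of the main value. The exceptions in direction, in microglia-like barcodes, were Btg2 and Ccnd1. The Btg2 log2 ratio was -0.05 in full and up to 0.95 (without the runner library). For Ccnd1 it was 0.97 in full and -0.05 without its highest barcode. Rules without Cenpf or with the 11 genes listed in all 3 tables were chosen after seeing the data, and left 52 and 42 members. No paired analysis was possible because each group is 1 library. Depth is one limit: the members' median of 1892 nuclear-encoded UMIs leaves most genes at 0 in a given barcode.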
